A study of Mus musculus with 14 samples.

Results

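The unfolded protein response genes examined here are 34 genes of the endoplasmic reticulum (ER) stress pathway: ER chaperones, disulfide isomerases, degradation and translocation factors, the 3 stress sensors with their transcription factors, and targets of the PERK-ATF4 branch. A member was taken where a probe set of the array carried its symbol and no other, with the brightest probe set standing for a gene that had several. Of the 34 genes, 33 had such a row on both array designs, among 18962 genes that did. The exception was the isomerase gene Pdia4, which had one on the smaller design only. The 33 genes all passed the filter on dim genes and stand among 16635 genes tested on the larger design.

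Tumours grown from B16-F10 cells, a pigmented melanoma line of C57BL/6 mice, were profiled by Affymetrix whole-transcript arrays. Res 499 and Res 177 are resistant sublines, each recovered from an unirradiated tumour that withstood or relapsed after therapy in a mouse whose opposite flank tumour received 20 Gy on day 8 and which was given the CTLA4-blocking antibody 9H10 on days 5, 8 and 11. The control is the sensitive line. The larger design held 7 Res 499, 1 Res 177 and 4 control tumours (control replicates 2 to 5), and the smaller design 1 Res 177 and 1 control tumour. Whether the profiled tumours were themselves treated, whether each grew in its own mouse and whether a subline is a clone is not given in the labels, so p-values measure the spread among these samples alone, part of which may be technical.

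Levels are log2 expression values, and a difference of 1 is a doubling. The 8 melanocyte markers lay at or above the 95.5th percentile of all genes by mean level, whereas B cell and plasma cell markers had a median percentile of 32.5, with 5 of 10 tested. Leukocyte genes differed between tumours: the mean of 5 of them (Ptprc, Cd53, Laptm5, Coro1a and Lcp1), relative to the control mean, ran from -0.30 to 1.59 in Res 499, was 1.0 in Res 177, and ran from -0.20 to 0.29 in control. In such bulk samples, fewer cells of a type and less RNA per cell cannot be told apart.

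As background, secretory and membrane proteins fold in the ER with the help of chaperones such as BiP, the product of Hspa5. When unfolded proteins accumulate, BiP leaves the sensors IRE1 (Ern1), PERK (Eif2ak3) and ATF6 (Atf6). ATF6 is cut and moves to the nucleus, IRE1 splices the Xbp1 transcript, and PERK phosphorylates the translation factor eIF2α, which favours translation of Atf4. ATF6 and XBP1 raise chaperone and degradation genes, ATF4 raises amino acid and stress genes such as Asns and Ddit3, and tumour cells under nutrient, oxygen or secretory load are known to run these programmes.

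The letters through which ATF6 is known to act with the factor NF-Y, the ER stress response element (ERSE), are shown because they are a feature of the members that the choice of genes did not use. ERSE was searched as CCAAT, then 9 bases of any kind, then CCACG, on both strands of the RefSeq windows (build GRCm38.p6) that run 250 bases before to 50 bases after a gene's start. Of the 29 members with a window, 9 held it (31.0%), against 21 of 12946 tested genes with a window (0.162%), so 9 of those 21 genes were members. ERSE was defined in the literature on promoters of several of these genes, so this is a description of the set. The sites follow, each with 5 bases on either side, on the strand on which the element reads forward, with its fixed letters in capitals.
Hspa5, chr2:34772020-34772048, + strand: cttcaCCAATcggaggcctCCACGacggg
Hsp90b1, upstream site, chr10:86705633-86705661, - strand: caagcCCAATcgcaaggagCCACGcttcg
Hsp90b1, second site, chr10:86705528-86705556, + strand: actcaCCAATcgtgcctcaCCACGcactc
Calr, chr8:84847070-84847098, + strand: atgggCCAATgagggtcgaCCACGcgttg
Canx, chr11:50325795-50325823, - strand: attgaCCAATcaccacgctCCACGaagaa
Dnajc3, chr14:118937822-118937850, + strand: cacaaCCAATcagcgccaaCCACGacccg
Creld2, chr15:88819515-88819543, - strand: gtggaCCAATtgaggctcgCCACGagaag
Pdia6, chr12:17266486-17266514, + strand: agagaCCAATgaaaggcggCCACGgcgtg
Syvn1, chr19:6046527-6046555, + strand: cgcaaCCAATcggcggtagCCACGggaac
Derl3, chr10:75893237-75893265, - strand: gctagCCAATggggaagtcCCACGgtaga

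These sites began between 44 bases (Syvn1) and 212 bases (Hsp90b1) before the gene's start. The core of an element known to be bound by XBP1, searched as TGACGTGG, was in 0 of the 29 windows and in 1.03% of tested genes. That count covers this core alone and not other sequences that XBP1 may bind. A second element, through which ATF4 is known to act with C/EBP factors, was searched as TGATGNAA and was present in 4 members (13.8%), against 3.08% of tested genes. They were Asns, Chac1 and Trib3, which are ATF4 targets, and Herpud1. The sites of Asns and Chac1 are given with 10 bases on either side.
Asns, chr6:7693215-7693242, - strand: cccagccacaTGATGaAActtcccgcac
Chac1, chr2:119351039-119351066, - strand: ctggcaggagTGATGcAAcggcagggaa

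The comparison of Res 499 with control asks what sets tumours of this therapy-escaped subline apart from those of sensitive cells. The Res 499 tumours all come from a single subline. A difference particular to that subline therefore cannot be told apart from one of resistance. ER chaperones lay modestly higher in Res 499 tumours: 10 of 11 had a positive change, with a median of 0.22, and the largest was that of Sdf2l1, at 0.49. Over all 33 genes 24 had a positive change (51.7% of all genes tested did), and the median change was 0.11 against 0.01 for all genes. None of the 33 passed limma's test adjusted over all genes (0.355% of all genes did, 0.144% upward and 0.210% downward). At an unadjusted p under 0.05, 12 members were higher (36.4%, against 6.68% of all genes) and 1 was lower. In 3 members, Manf, Pdia6 and Derl1, every Res 499 tumour lay above every control (1.23% of all genes), and in 0 members every one lay below (1.15% of all genes).

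With each array centred on its median, the count of 24 positive changes was 21, and the median 0.07 (-0.03 for all genes). Only Manf then had every Res 499 tumour above every control (0.763% of all genes). Without Res 499 replicate 5, described below, Pdia6 and Sdf2l1 passed the adjusted test (0.439% of all genes did), and 7 members had every Res 499 tumour above every control (1.74% of all genes). That number was 6 without control replicate 4 (1.64% of all genes).

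**Figure D1:**
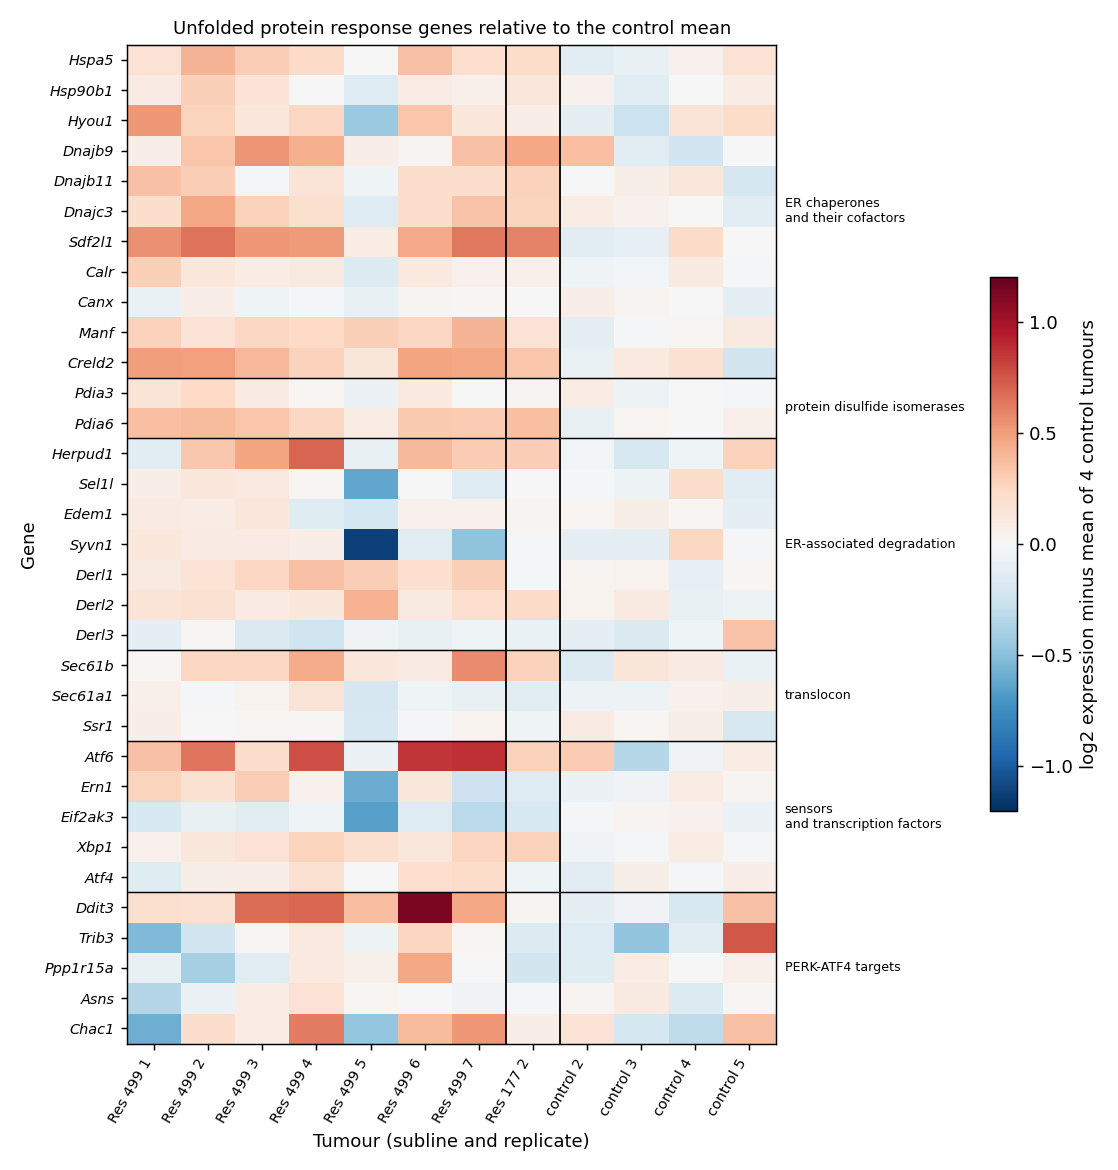
Difference of each gene's log2 expression from the mean of the 4 control tumours (colour) for 33 unfolded protein response genes (rows, grouped by role) in the 12 tumours of the larger design (columns). The chaperone rows are mostly red in Res 499 and in the Res 177 tumour, and Res 499 replicate 5 is the lowest of the 7 in 19 of the 33 rows.

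Among the chaperones, Sdf2l1 encodes an ER-resident partner of BiP and the DNAJ cochaperones. Its level was 10.74, 11.17 and 11.30 in Res 499 (lowest, median and highest of 7 tumours), 11.25 in the Res 177 tumour, and 10.53, 10.55, 10.65 and 10.88 in control. It lay above every control in 6 of 7 Res 499 tumours, and the exception, replicate 5, lay within the control range. The change in Res 499 was 0.49 (SE 0.11, limma adjusted p = 0.0770), a 1.40-fold difference.

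Creld2 encodes a secreted and ER-resident disulfide-rich protein induced by ER stress. It stood at 11.05, 11.37 and 11.41 in Res 499 (lowest, median, highest), 11.24 in Res 177, and 10.69, 10.83, 11.02 and 11.09 in control. Here too 6 of 7 Res 499 tumours were above every control, and the change was 0.39 (SE 0.09, adjusted p = 0.0942). Manf encodes an ER-stress-induced secreted factor that binds BiP. It fell outside the naming rule and is given because its groups did not overlap: 6.74, 6.83 and 6.99 in Res 499, 6.75 in Res 177, and 6.47, 6.56, 6.60 and 6.69 in control, a change of 0.27 (SE 0.06, adjusted p = 0.0942). The Manf probe set was dim for a chaperone, at percentile 54.6 of genes by mean level on the larger design and 87.4 on the smaller.

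Hspa5 itself, the BiP gene, was at 10.41, 10.63 and 10.81 in Res 499, 10.62 in Res 177, and 10.27, 10.31, 10.45 and 10.58 in control. Of the 7 Res 499 tumours, 6 were above every control, the exception being replicate 5. Replicate 1 was above only before rounding, as it and control replicate 5 both stood at 10.58. The change of 0.24 (SE 0.09) did not pass the test (adjusted p = 0.253). Of the BiP cochaperone genes, Dnajb9 differed by 0.26 (SE 0.13), Dnajc3 by 0.22 (SE 0.10) and Dnajb11 by 0.17 (SE 0.09). Smaller differences were those of Hyou1, the nucleotide exchange factor of BiP, at 0.17 (SE 0.16), and of Hsp90b1, the ER member of the HSP90 family, at 0.08 (SE 0.08). Of the lectin chaperones of the glycoprotein folding cycle, Calr differed by 0.09 (SE 0.08) and Canx by -0.01 (SE 0.06).

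Protein disulfide isomerases form and rearrange disulfide bonds in the ER. Pdia6, which also restrains IRE1 signalling, was at 10.91, 11.13 and 11.20 in Res 499, 11.18 in Res 177, and 10.73, 10.82, 10.84 and 10.88 in control. The groups did not overlap, and the change was 0.29 (SE 0.07, adjusted p = 0.0798). Pdia3, which works with calreticulin on glycoproteins and in MHC class I loading, differed by 0.08 (SE 0.07).

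**Figure D2:**
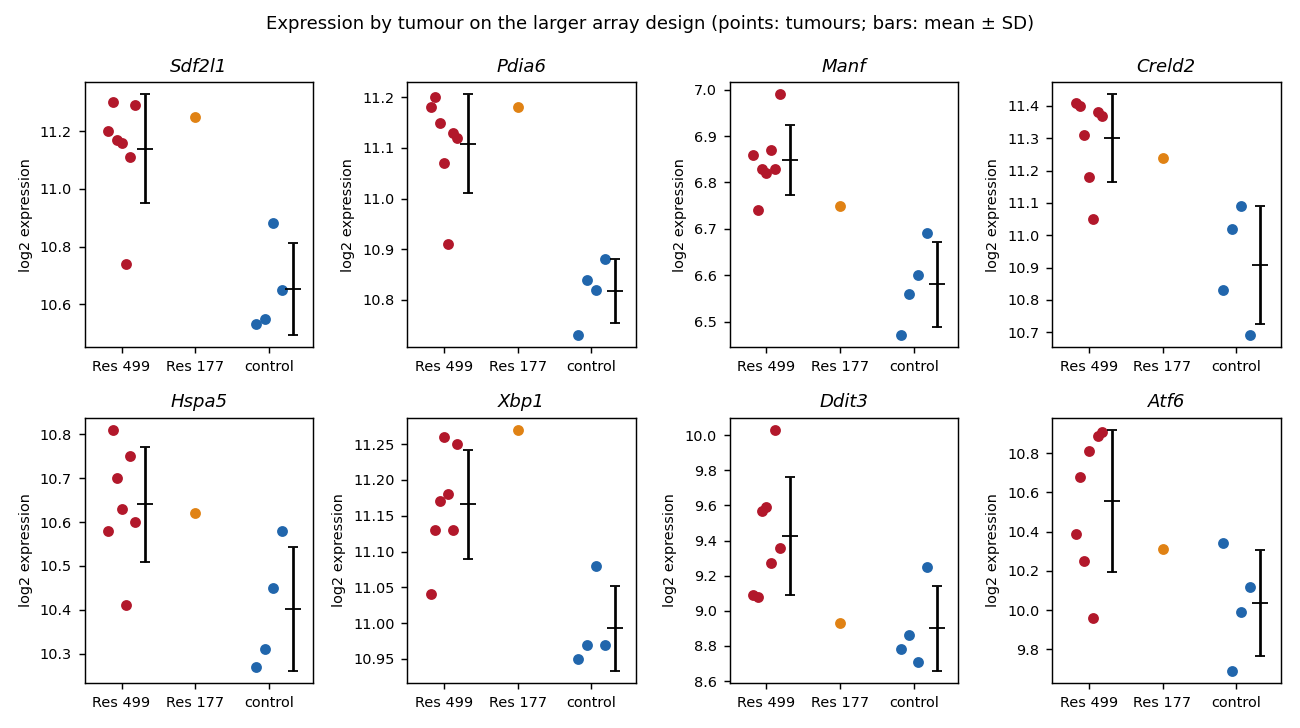
Log2 expression (vertical axis) of 8 genes in each tumour of the larger design, for Res 499 (7 tumours), Res 177 (1) and control (4); bars give the mean ± SD of the tumours of a group, and the axes do not start at 0. In the Sdf2l1, Creld2 and Hspa5 panels the lowest Res 499 point is replicate 5, and in the Pdia6 and Manf panels no Res 499 point reaches the control range.

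The 7 genes of ER-associated degradation, which returns misfolded proteins to the cytosol for the proteasome, were divided: 4 had positive and 3 negative changes, with a median of 0.01. Derl1 encodes a membrane protein of the retrotranslocation channel and, like Manf, is given for its non-overlapping groups. It was at 12.03, 12.17 and 12.27 in Res 499, 11.90 in Res 177, and 11.82, 11.94, 11.95 and 11.96 in control. The Res 499 change was 0.24 (SE 0.06, adjusted p = 0.131), while the Res 177 tumour lay within the control range. Its relative Derl2 differed by 0.18 (SE 0.07).

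Herpud1, which organises the degradation complex and is a target of both ATF6 and ATF4, was at 9.89, 10.35 and 10.72 in Res 499, 10.32 in Res 177, and 9.83, 9.97, 9.99 and 10.30 in control. Its change of 0.28 (SE 0.15, adjusted p = 0.471) was within an overlap of the groups. Syvn1 encodes the ubiquitin ligase HRD1 and Sel1l its adaptor. Syvn1 was at 7.80, 9.00 and 9.05 in Res 499, 8.90 in Res 177, and 8.81, 8.81, 8.90 and 9.17 in control, a change of -0.19 (SE 0.21, adjusted p = 0.773). Sel1l was at 9.81, 10.46 and 10.56 in Res 499, 10.44 in Res 177, and 10.31, 10.37, 10.41 and 10.64 in control, a change of -0.06 (SE 0.13, adjusted p = 0.889). For both genes the lowest value was that of Res 499 replicate 5, and the Sel1l change was 0.03 without that tumour.

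Edem1, a lectin that extracts glycoproteins for degradation, differed by 0.01 (SE 0.08). Derl3, a relative of Derl1 that plasma cells express, was at 6.00, 6.15 and 6.25 in Res 499, 6.16 in Res 177, and 6.07, 6.12, 6.19 and 6.58 in control. Control replicate 5 stood above the rest, and the change was -0.10 (SE 0.09, adjusted p = 0.713).

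Of the translocon genes, through which new proteins enter the ER, Sec61b differed by 0.25 (SE 0.11, adjusted p = 0.344), Sec61a1, the channel subunit, by -0.01 (SE 0.07), and Ssr1, a subunit of the associated TRAP complex, by -0.01 (SE 0.07). The Sec61b probe set was dim, at percentile 44.0 of genes by mean level on the larger design and 78.7 on the smaller.

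The sensors and transcription factors had 4 of 5 positive changes, with a median of 0.09. Atf6 was at 9.96, 10.68 and 10.91 in Res 499, 10.31 in Res 177, and 9.69, 9.99, 10.12 and 10.34 in control. In all, 5 of 7 Res 499 tumours were above every control, with a change of 0.52 (SE 0.18, adjusted p = 0.248). Ern1 was at 8.56, 9.29 and 9.45 in Res 499, 9.00 in Res 177, and 9.08, 9.11, 9.19 and 9.24 in control, with a change of 0.01 (SE 0.15, adjusted p = 0.980). Res 499 tumours lay on both sides of the controls, 4 above and 2 below.

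Eif2ak3, the PERK gene, was at 8.54, 9.04 and 9.14 in Res 499, 9.01 in Res 177, and 9.12, 9.18, 9.22 and 9.24 in control. It was below every control in 6 of 7 Res 499 tumours and was the member lower at an unadjusted p under 0.05 (change -0.22, SE 0.10, adjusted p = 0.384). Xbp1, whose spliced form these whole-gene probe sets do not report separately, was at 11.04, 11.17 and 11.26 in Res 499, 11.27 in Res 177, and 10.95, 10.97, 10.97 and 11.08 in control. It was above every control in 6 of 7 Res 499 tumours (change 0.17, SE 0.06, adjusted p = 0.243). Atf4, which is regulated largely in translation, was at 9.08, 9.31 and 9.45 in Res 499, 9.18 in Res 177, and 9.10, 9.20, 9.30 and 9.31 in control, a change of 0.09 (SE 0.08, adjusted p = 0.714).

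Of the 5 PERK-ATF4 targets, Ddit3 had the largest change. It encodes CHOP, a transcription factor of the late, pro-apoptotic stress response. Its level was 9.08, 9.36 and 10.03 in Res 499, 8.93 in Res 177, and 8.71, 8.78, 8.86 and 9.25 in control. It was above every control in 5 of 7 Res 499 tumours, with the largest change of the 33 genes, 0.53 (SE 0.17), which did not pass the test (adjusted p = 0.211).

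The other 4 targets had smaller changes, and the difference between them and Ddit3 was not tested. Chac1, a glutathione-degrading enzyme gene, differed by 0.11 (SE 0.23), and Ppp1r15a, which encodes the GADD34 subunit that reverses eIF2α phosphorylation, by 0.00 (SE 0.13). Asns, the asparagine synthetase gene, differed by -0.02 (SE 0.09), and Trib3, a pseudokinase gene induced by CHOP, by -0.06 (SE 0.20). Their median with Ddit3 was 0.00, against 0.22 for the chaperones. The gap depended on the fit: with leukocyte content as covariate these medians were 0.19 for the PERK-ATF4 targets and 0.21 for the chaperones. Trib3 and Chac1 spread widely within groups, from 7.58 to 8.37 in Res 499 and 7.64 to 8.86 in control for Trib3, and from 8.12 to 9.32 in Res 499 and 8.40 to 9.06 in control for Chac1.

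**Figure D3:**
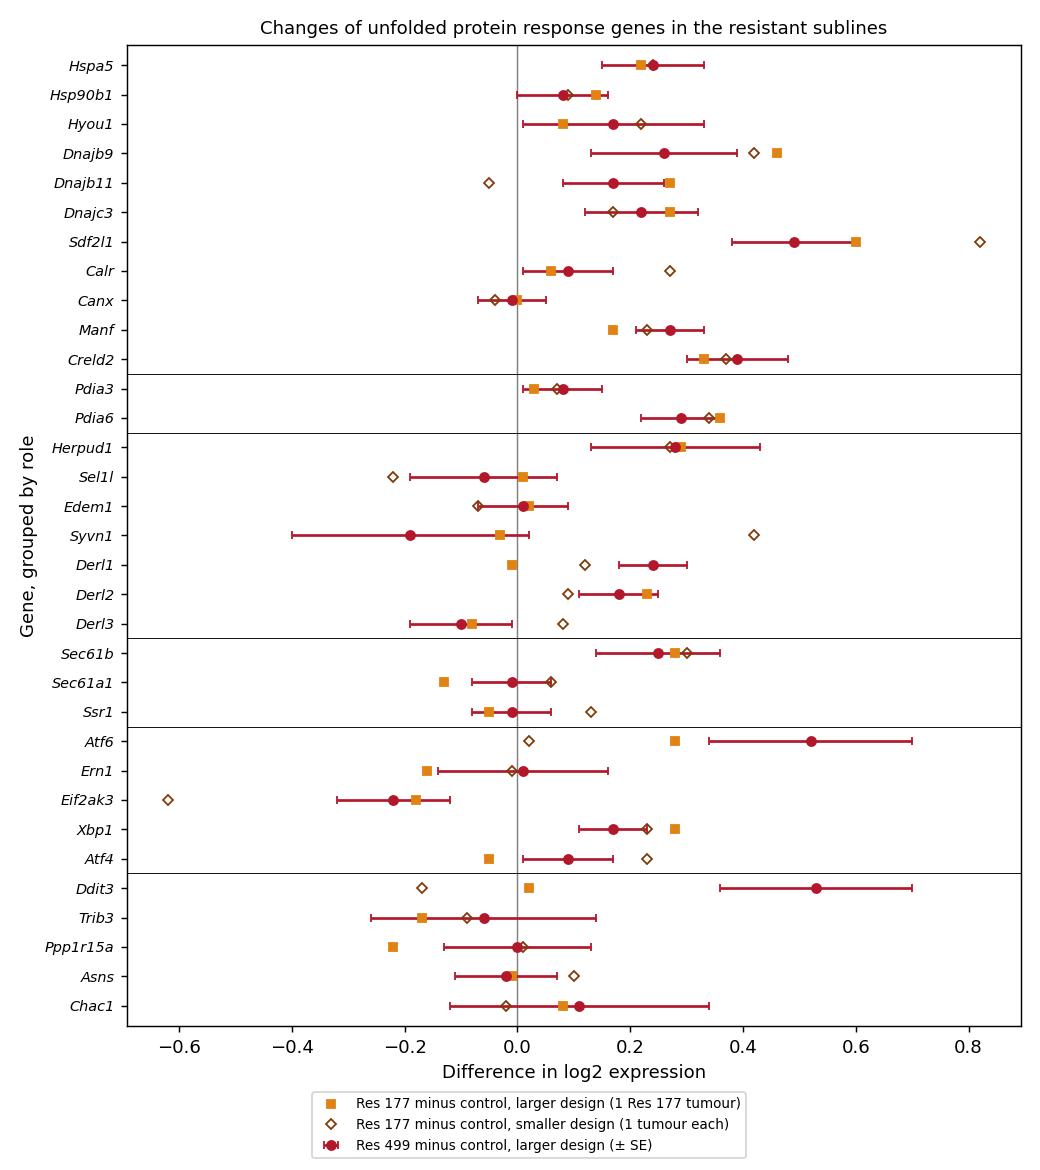
Difference in log2 expression (horizontal axis) for 33 genes (rows, by role) in Res 499 minus control on the larger design (circles, ± SE) and in Res 177 minus control on the larger design (squares, 1 Res 177 tumour) and on the smaller design (diamonds, 1 tumour each, no error available). Sdf2l1 lies at 0.49, 0.60 and 0.82 by these measures, and Ddit3 at 0.53, 0.02 and -0.17.

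Members that hold the ERSE printed above had a median change in Res 499 of 0.09 (9 genes, from -0.19 for Syvn1 to 0.39 for Creld2). It was 0.09 for the 19 tested members whose window lacks an exact match (from -0.22 to 0.53). For the Res 177 tumour of the larger design these medians were 0.14 (from -0.08 to 0.36) and 0.02 (from -0.22 to 0.60). No test was made of these differences.

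The 7 Res 499 tumours were not alike. Replicate 5 had the lowest value of the 7 in 19 of 33 members (57.6%), whereas it was lowest in 20.6% of all genes. These members included 9 of the 11 chaperones, both isomerases and the 3 sensors. Its mean over the chaperones, relative to the control mean, was -0.04, whereas the other 6 Res 499 tumours lay between 0.21 and 0.32, the Res 177 tumour was at 0.24, and the controls ran from -0.05 to 0.06. Its array weight was the lowest of the 12, at 0.465, and its mean over the 8 melanocyte markers was also the lowest, at -0.14, against -0.03 to 0.22 in the other Res 499 tumours and -0.05 to 0.02 in control. The part of either in its low chaperone values was not tested.

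Chaperone and PERK-ATF4 means were ordered differently across tumours. Replicate 2 had the highest chaperone mean, 0.32, with -0.06 over the PERK-ATF4 targets. Replicate 6 had the highest PERK-ATF4 mean, 0.45, with 0.23 over the chaperones, and held the highest Ddit3, Trib3 and Ppp1r15a values of the 7. Replicate 1 had 0.27 over the chaperones and the lowest PERK-ATF4 mean, -0.28. Among controls, replicate 5 had a PERK-ATF4 mean of 0.31, above 5 of the 7 Res 499 tumours.

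Res 499 replicate 7 had a leukocyte mean of -0.30, below every control, and a chaperone mean of 0.26, whereas replicate 5 had 1.23 and -0.04. Replicates 1, 2 and 3 had leukocyte means of 1.28, 1.59 and 1.58 and chaperone means of 0.27, 0.32 and 0.24. In replicates 4 and 6 the leukocyte means were 0.30 and 0.28 and the chaperone means 0.21 and 0.23. When leukocyte content entered the fit as a covariate, the median change of the 33 genes in Res 499 was 0.20, and 0 members passed the adjusted test (0.144% of all genes did). In that fit the chaperones had 11 of 11 positive changes with a median of 0.21, and the PERK-ATF4 targets 5 of 5 with a median of 0.19. The counts and medians of markers given next are from the fit without that covariate. Macrophage markers (10 of 10 with positive changes) ran from -0.35 to 1.90 in Res 499, stood at 1.03 in Res 177 and ran from -0.12 to 0.32 in control. Fibroblast markers, of a cell type that is itself secretory, had 5 of 7 positive changes with a median of 0.43, and ran from -0.72 to 1.2 in Res 499, stood at 0.67 in Res 177 and ran from -0.42 to 0.45 in control. T cell markers had 7 of 7 positive changes with a median of 0.20, and ran from -0.12 to 0.78 in Res 499, stood at 0.42 in Res 177 and ran from -0.09 to 0.19 in control. Endothelial markers had 5 of 5 positive changes with a median of 0.16, and ran from -0.27 to 0.71 in Res 499, stood at -0.03 in Res 177 and ran from -0.12 to 0.27 in control. With leukocyte content as a covariate, positive changes numbered 4 of 10 for macrophage markers (median -0.12) and 0 of 7 for fibroblast markers (median -0.61). They numbered 1 of 7 for T cell markers (median -0.07) and 0 of 5 for endothelial markers (median -0.18). The part of fibroblasts and endothelial cells in the members' values was not tested. B cell and plasma cell markers, of interest because plasma cells run a strong unfolded protein response, ran from 0.00 to 0.43 in Res 499, were at -0.07 in Res 177 and ran from -0.05 to 0.06 in control. The largest B cell and plasma cell value was that of replicate 2, which had the highest chaperone mean, and its part in that value was not tested.

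**Figure D4:**
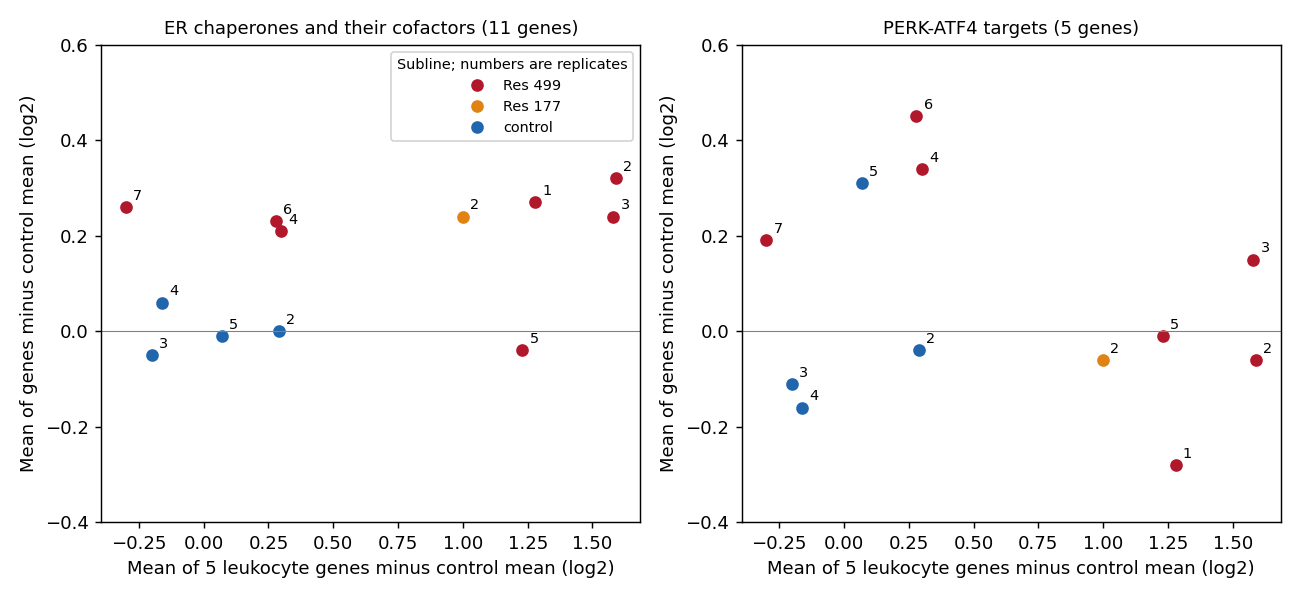
Mean over 11 ER chaperone genes (left) and 5 PERK-ATF4 targets (right) relative to the control mean (vertical axis, log2) against the mean of 5 leukocyte genes relative to the control mean (horizontal axis, log2), 1 point per tumour of the larger design, numbered by replicate. On the left, 6 Res 499 tumours and the Res 177 tumour sit between 0.21 and 0.32 at leukocyte values from -0.30 to 1.59, and Res 499 replicate 5 sits at -0.04.

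When the sublines were pooled by the response label, as resistant (7 Res 499 and 1 Res 177 tumours) against sensitive (4 control tumours), Sdf2l1 rose. It averaged 11.15 ± 0.18 (SD, n = 8) in resistant tumours and 10.65 ± 0.16 (SD, n = 4) in sensitive tumours, a change of 0.50 (SE 0.10, limma adjusted p = 0.0490), and it was the sole member called (0.613% of all genes were, 0.289% upward). Pdia6 differed by 0.30 (SE 0.06, adjusted p = 0.0515), Creld2 by 0.38 (SE 0.09, adjusted p = 0.0762) and Manf by 0.26 (SE 0.06, adjusted p = 0.0885). In Pdia6 and Manf every resistant tumour was above every sensitive one (0.968% of all genes), and in 0 members every one was below (0.962% of all genes). The median over the members was 0.11, with 22 of 33 positive (52.4% of all genes). At an unadjusted p under 0.05, 13 members were higher (7.11% of all genes) and 1 was lower, 14 in all (13.4% of all genes). The call on Sdf2l1 sat at the threshold: it was lost when any of 11 tumours other than Res 499 replicate 5 was left out, and its adjusted p ran from 0.00675 to 0.147 over 20 alternatives, with the change between 0.46 and 0.58. Since these samples overlap those of the Res 499 comparison, the pooled values are not separate evidence. With 7 of the 8 resistant tumours from Res 499, traits of that subline cannot be told apart from resistance here either.

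The Res 177 subline was measured once on each design, against separate controls. On the larger design the Res 177 tumour is assumed to vary like the other tumours, and 0 of 33 members passed limma's test (0.210% of all genes did). At an unadjusted p under 0.05 there were 3 members (4.08% of all genes), Sdf2l1, Pdia6 and Xbp1, all higher (2.56% of all genes). Positive changes numbered 22 of 33 (53.3% of all genes). This single tumour lay above every control in 8 of 11 chaperones, and in 13 of all 33 members (22.5% of all genes), while 4 members lay below every control (17.5% of all genes). Sdf2l1 differed by 0.60 (SE 0.19, adjusted p = 0.889), Dnajb9 by 0.46 (SE 0.22), Pdia6 by 0.36 (SE 0.12), Creld2 by 0.33 (SE 0.17) and Xbp1 by 0.28 (SE 0.11).

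On the smaller design, where no test was possible, 25 of 34 members had positive differences (58.5% of all genes). Sdf2l1 was at 12.48 in the Res 177 tumour and 11.66 in the control tumour, a difference of 0.82, the one rise of 0.5 or more among the 34 members (5.03% of all genes). Dnajb9 was at 11.19 in Res 177 and 10.77 in control, Creld2 at 11.91 in Res 177 and 11.54 in control, Pdia6 at 12.02 in Res 177 and 11.67 in control, and Xbp1 at 12.03 in Res 177 and 11.80 in control. Eif2ak3 was at 9.70 in Res 177 and 10.32 in control, the one fall of 0.5 or more (2.49% of all genes), and on the larger design it was -0.18 (SE 0.18) in Res 177. Pdia4, an isomerase gene measured on this design alone, was at 12.88 in Res 177 and 12.81 in control. Ddit3 did not lie higher in Res 177 on either design, at 0.02 (SE 0.30) on the larger and -0.17 on the smaller.

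For the 33 genes on both designs, 16 were positive and 3 negative in Res 177 on both, so 57.6% had the same sign, against 62.3% of all genes. The median of the members was 0.06 on the larger design (0.01 for all genes) and 0.10 on the smaller (0.04 for all genes). With each array centred on its median, the members' median was 0.00 on the larger design (-0.05 for all genes). On the smaller it was then 0.01 (-0.05 for all genes). Positive members numbered 16 of 33 on the larger design and 19 of 34 on the smaller with arrays centred. Positive chaperones then numbered 9 of 11 on each design, against 11 of 11 on the larger and 9 of 11 on the smaller as deposited. Keratinocyte markers stood at 2.52 in the Res 177 tumour of the larger design, against -0.11 to 0.09 in control. On the smaller design the Res 177 tumour lay above the control tumour in 6 of 6 keratinocyte markers (median difference 1.14), 5 of 5 leukocyte genes (0.79) and 9 of 9 macrophage markers (1.21). The part of these cells in the Res 177 values was not tested on the smaller design, nor that of keratinocytes on the larger. The test of Res 499 against Res 177 called 0 of 33 members (0.234% of all genes), with 1 at an unadjusted p under 0.05 (2.93% of all genes), Derl1, higher in Res 499 by 0.25 (SE 0.11; 0.998% of all genes were higher), and 16 of 33 positive (47.5% of all genes).

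Pathway genes outside the 34 gave 0 calls in Res 499 against control, and 0 in resistant against sensitive, over 6 lists. At an unadjusted p under 0.05 in Res 499 they had 5 of 24, 1 of 18, 5 of 29, 3 of 12, 2 of 16 and 2 of 10 genes in the order in which the lists follow (13.0% of all genes). Other ER folding and degradation genes had 18 of 24 positive changes with a median of 0.04. With arrays centred these were 12 of 24 and 0.00, when the median of all genes was -0.03. Fkbp11, a prolyl isomerase gene of secretory cells, was at 8.23 ± 0.20 (SD, n = 7) in Res 499 and 7.77 ± 0.10 (SD, n = 4) in control (0.46, SE 0.10, adjusted p = 0.0792), while Erlec1, a lectin of ER-associated degradation, was at 9.76 ± 0.14 in Res 499 and 10.11 ± 0.17 in control (-0.35, SE 0.09, adjusted p = 0.134).

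Other translocon and early secretory genes had 13 of 18 positive changes with a median of 0.07 (12 of 18 and 0.04 with arrays centred). Spcs2, a signal peptidase subunit gene, differed by 0.16 (SE 0.06, adjusted p = 0.228) with every Res 499 tumour above every control (1.23% of all genes). Kdelr3, a receptor that returns ER proteins from the Golgi, differed by 0.43 (SE 0.29, adjusted p = 0.583). Other ATF4 and amino acid response genes had 18 of 29 positive changes with a median of 0.05 (16 of 29 and 0.02 with arrays centred). They were led by the lipoprotein receptor gene Vldlr at 0.59 (SE 0.27, adjusted p = 0.380) and the mTORC1 inhibitor gene Ddit4 at -0.46 (SE 0.21, adjusted p = 0.384).

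Other sensors and eIF2 regulators had 7 of 12 positive changes with a median of 0.02 (3 of 12 and -0.02 with arrays centred). In 1 of the 12 genes every Res 499 tumour lay below every control (1.15% of all genes). The ER-associated caspase gene Casp12 differed by 0.91 (SE 0.34, adjusted p = 0.264) and Creb3, a transcription factor gene of the ATF6 type, by 0.40 (SE 0.12, adjusted p = 0.161). Cytosolic heat shock genes, which answer unfolded proteins outside the ER, had 11 of 16 positive changes with a median of 0.04 in Res 499. With arrays centred these were 9 of 16 and 0.01. In Res 177 they had 13 of 16 with a median of 0.25 on the larger design (0.19 with arrays centred). On the smaller design they had 15 of 16 with a median of 0.34 (0.26 with arrays centred). The Res 177 tumour of the larger design lay above every control in 13 of the 16 (22.5% of all genes). It lay below every control in 1 (17.5% of all genes). Hspb1 differed by 1.02 (SE 0.58, adjusted p = 0.493) in Res 499 and Hspb8 by -0.55 (SE 0.40, adjusted p = 0.614). Hypoxia genes had 2 of 10 positive changes with a median of -0.15, with Egln3 at 0.66 (SE 0.32, adjusted p = 0.412) and Bnip3 at -0.36 (SE 0.16, adjusted p = 0.349). With arrays centred 2 of 10 hypoxia genes were positive, with a median of -0.19. With leukocyte content as a covariate 5 of 10 were positive, with a median of 0.00.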

How the data were processed

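The authors deposited RMA values on a log2 scale, made with oligo per the submitters' processing notes. Versions, the genome build and the probe annotation were not given in the sources used here. That scale was inferred from how far the values extend. The 2 array designs were normalized separately and never pooled, and array values carry no depth, so the number of tumours limits the precision.

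Groups follow the subline label, and replicate numbers only name tumours in deposited order. Probe sets with 1 symbol were named from the platform annotation, checked through Entrez numbers against the RefSeq table, which changed 0 symbols. The lowest 25% of genes by mean were left out. Tests used limma 3.58.1 (lmFit, then eBayes; R 4.3.3), Benjamini-Hochberg adjusted over 16635 genes at a threshold of 0.05, with the 3 sublines in one fit and a separate fit by response. The script was tested on simulated data. Lists are described by counts and medians, beside those of all genes. Promoter windows are RefSeq's; 5 members (Hyou1, Manf, Derl1, Sec61a1 and Atf6) had none.

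The members and lists were chosen with earlier results of these data known. Named by rule were Hspa5, Xbp1, Atf4, Ddit3 and the 3 sensors, any member called, and the 6 largest rises and 4 largest falls in Res 499. For each pathway list the genes called and the 2 largest changes were named. Alternatives covered the dim-gene filter, probe set choice, centring, the eBayes prior, array weights, leukocyte content and each tumour left out. Leaving out Res 499 replicates 2 and 5 together, and the counts at an unadjusted p and of non-overlapping groups, were added after seeing the data. Protein sequences were not used here.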

Additional observations from a re-analysis of the deposited data

Results flagged for a closer look

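In all, 3 values of named members stood apart from the rest of their group by Dixon's test at 95%, among 28 groups checked, where chance gives about 1 in 20. Sdf2l1 in Res 499 replicate 5 was 10.74, below 11.11 to 11.30 in the other 6 tumours. Sel1l in the same tumour was 9.81, below 10.28 to 10.56 in the others. Xbp1 in control replicate 4 was 11.08, above 10.95 to 10.97 in the other 3 controls.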

How the results depend on the processing

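No paired analysis was possible because the labels give no replicate numbers. The number of members called in Res 499 was 0 in the fit reported (0.355% of all genes). It was 5 with array weights (Creld2, Derl1, Manf, Pdia6 and Sdf2l1, with 2.14% of all genes called) and 2 without Res 499 replicates 2 and 5 (1.09%). With 1 tumour left out it was 0 to 2 (0.0361% to 1.18% of all genes). The median change was 0.20 with leukocyte content as a covariate and 0.08 to 0.16 with 1 tumour left out. In resistant against sensitive the count was 0 with no filter on dim genes (0.325% of all genes), with arrays centred (0.499%) and with leukocyte content as a covariate (0.204%), 2 with the lowest 50% of genes left out (1.04%), with the mean of probe sets (0.601%) and with the trended robust prior (0.613%), 4 with array weights (1.98%), 3 without Res 499 replicates 2 and 5 (1.01%), and 0 to 3 with 1 tumour left out (0.0541% to 0.848%), against 1 in the fit reported (0.613%). The Res 177 median was 0.00 with arrays centred (-0.05 for all genes). It was 0.09 with leukocyte content as a covariate and 0.02 to 0.14 with 1 tumour left out. That of the smaller design was 0.01 with arrays centred (-0.05 for all genes), when positive differences among all genes fell to 5953 of 14953. Members with every Res 499 tumour above every control numbered 1 with arrays centred (0.763% of all genes), 7 without Res 499 replicates 2 and 5 (3.29%) and 3 to 7 with 1 tumour left out (1.38% to 2.61%), against 3 in the fit reported (1.23%), and members higher at an unadjusted p numbered 9 to 16 with 1 tumour left out (4.82% to 8.02%). Changes near 0 turned sign in Ern1 (-0.02 with arrays centred, -0.08 with leukocyte content as a covariate, -0.03 to 0.12 with 1 tumour left out), Derl3 (-0.16 to 0.01 with 1 tumour left out) and Sel1l (0.01 without Res 499 replicates 2 and 5, and -0.10 to 0.03 with 1 tumour left out). The cause of these changes was not tested.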
